A study of Mus musculus with 4 samples.

Results

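Long non-coding RNA genes are transcribed into RNAs that are not translated. Some act near their own locus, such as Xist, whose RNA coats and silences 1 X chromosome, some act in the nucleus at large, such as Neat1 and Malat1, and some serve as host transcripts from which microRNAs or small nucleolar RNAs are cut. For most of the annotated genes no role is known. As at protein-coding genes, the start of an active non-coding gene lies in nucleosome-poor DNA, which the Tn5 transposase can cut, and many such starts lie inside or beside enhancers of protein-coding genes.

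The chromatin openness of these starts was examined in single-cell ATAC-seq data of long-term hematopoietic stem cells (LT-HSCs), the rare bone marrow cells that sustain blood formation. The cells came from C57BL/6JRj mice aged 22 to 28 months and were sorted by an antibody against the surface protein CLCA3A1 into a CLCA3A1high and a CLCA3A1low sample, each pooled from 4 mice and each present once. Of 93513 peaks, 3274 touched a window of 1000 bp upstream or downstream of a GENCODE M21 transcript start of a lincRNA gene (a long RNA gene between protein-coding genes) or an antisense gene (one that overlaps a protein-coding locus on the other strand). Of these, 1319 (40.3%) also lay within 1000 bp of a protein-coding transcript start and were left out. The remaining 1955 peaks, 2.09% of all peaks, are called non-coding start peaks below, and 1309 of them belong to lincRNA genes and 646 to antisense genes. No gene of the annotation carries the third type of the rule, lncRNA.

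The cells of both samples stand in 1 table and carry 1 of 2 barcode suffixes, called set 1 (818 cells, 13050952 counts) and set 2 (636 cells, 9820094 counts). No label pairs a suffix with CLCA3A1high or CLCA3A1low, so the sets are not assigned to a group here, and a difference between them has no direction in terms of CLCA3A1. There is 1 library per set and no replicate, so no p-value is given. All intervals are exact 95% intervals that cover counting error only, and they are too narrow because most fragments bring 2 cut sites. No barcode occurred in both sets. Promoters of all 9 stem cell genes examined had a peak, at 4.81 to 99.5 CPM (counts at the peak per 1000000 counts in all peaks). Those of 4 granulocyte and monocyte genes reached at most 1.49 CPM, of 3 T cell genes Cd3d alone had a promoter peak (33.8 CPM), those of 3 B cell genes were at or below 1.05 CPM except Pax5 (29.7 CPM), that of Klf1, an erythroid factor, was at 39.5 CPM, and of 2 NK cell genes Ncr1 had no promoter peak and Klrb1c one of 2.49 CPM.

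Non-coding start peaks differed widely in sequence, and 6 of them are shown as examples. The first pair shows a CpG-dense and a CpG-poor peak, with each CpG in capitals. 1700096K18Rik is among the 12 most open non-coding starts and holds 29 CpGs in the central 300 bp of its peak (72.7% GC), as many promoters of broadly expressed genes do. Gm31897, near the integrin gene Itgal, was among the peaks more open in set 2 and holds 1 CpG (46.7% GC).
1700096K18Rik, chr5:25529697-25529996, plus strand of GRCm38: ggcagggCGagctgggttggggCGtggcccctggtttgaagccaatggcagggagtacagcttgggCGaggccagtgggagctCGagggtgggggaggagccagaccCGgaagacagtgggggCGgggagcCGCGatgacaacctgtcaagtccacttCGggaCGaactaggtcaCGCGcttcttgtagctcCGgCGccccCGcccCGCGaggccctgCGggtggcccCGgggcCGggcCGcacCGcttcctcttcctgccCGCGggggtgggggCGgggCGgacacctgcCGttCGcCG
Gm31897, chr7:127287995-127288294, plus strand of GRCm38: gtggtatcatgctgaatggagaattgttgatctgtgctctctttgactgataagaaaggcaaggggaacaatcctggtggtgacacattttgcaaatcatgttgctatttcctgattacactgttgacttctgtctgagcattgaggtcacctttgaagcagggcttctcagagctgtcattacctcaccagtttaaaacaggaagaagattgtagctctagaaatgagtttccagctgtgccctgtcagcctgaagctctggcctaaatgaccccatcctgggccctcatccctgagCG
The second pair was more open in set 2 and holds the word GAGGAAGT, a consensus of the blood cell factor PU.1, in capitals. In Gm43121 the word is on the minus strand and is printed as its reverse complement.
Gm37759, chr1:136118906-136119205, plus strand of GRCm38: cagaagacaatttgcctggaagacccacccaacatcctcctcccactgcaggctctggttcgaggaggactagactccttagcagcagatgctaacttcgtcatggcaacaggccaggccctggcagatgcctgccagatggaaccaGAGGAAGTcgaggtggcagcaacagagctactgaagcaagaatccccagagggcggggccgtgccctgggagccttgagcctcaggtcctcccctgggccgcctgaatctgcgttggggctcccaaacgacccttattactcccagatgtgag
Gm43121, chr3:100436813-100437112, plus strand of GRCm38: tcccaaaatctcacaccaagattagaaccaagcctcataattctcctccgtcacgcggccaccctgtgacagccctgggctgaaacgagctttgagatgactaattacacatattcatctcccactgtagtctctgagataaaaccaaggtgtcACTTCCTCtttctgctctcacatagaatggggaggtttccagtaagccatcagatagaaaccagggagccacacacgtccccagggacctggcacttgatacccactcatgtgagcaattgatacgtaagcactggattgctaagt
The third pair was more open in set 1 and holds a consensus word of the GATA factors (AGATAAGA or AGATAAGG), in capitals, on the minus strand in A930019D19Rik.
Gm38477, chr16:87049829-87050128, plus strand of GRCm38: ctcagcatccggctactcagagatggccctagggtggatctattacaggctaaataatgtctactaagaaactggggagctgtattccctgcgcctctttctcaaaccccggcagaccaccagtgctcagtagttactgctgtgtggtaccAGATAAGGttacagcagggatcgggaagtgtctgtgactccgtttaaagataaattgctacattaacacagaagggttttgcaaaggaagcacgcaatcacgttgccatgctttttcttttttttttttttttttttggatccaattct
A930019D19Rik, chr2:146259155-146259454, plus strand of GRCm38: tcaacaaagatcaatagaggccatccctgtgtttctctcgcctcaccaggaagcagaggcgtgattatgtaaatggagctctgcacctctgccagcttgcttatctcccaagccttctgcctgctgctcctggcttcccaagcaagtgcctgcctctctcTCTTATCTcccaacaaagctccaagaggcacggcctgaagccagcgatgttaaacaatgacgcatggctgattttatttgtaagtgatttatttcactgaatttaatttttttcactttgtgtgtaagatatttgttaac

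The 1955 peaks named 1783 genes by their nearest start, and 153 genes had more than 1 peak, up to 5. The annotation lists 8813 genes of these types, and 1841 of them had a non-coding start peak in their window. Only a small part of the genes has a proper name: 1781 of the peaks (91.1%) belong to genes known by a Gm number, a Rik clone or an accession. The peak covered the start itself in 1005 cases (51.4%) and lay beside it in the others. In 569 cases (29.1%) the peak lay in the body of a protein-coding gene, against 56.0% of the peaks at neither kind of start, called other peaks below. ATAC-seq has no strand, so openness there cannot be told apart between the non-coding gene and the gene around it. The median distance to a protein-coding start was 29501 bp, and 255 peaks lay within 5000 bp of one. Within 1000 bp of 74 peaks (3.79%), which may be among the 255, lay the start of a transcript of a protein-coding gene. That transcript is not itself annotated as protein-coding, such as a retained intron.

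Non-coding start peaks were less open than protein-coding promoters and more open than other peaks. Their median was 5.90 CPM (quartiles 2.32 and 14.4), against 24.7 CPM at 16788 protein-coding promoter peaks and 3.10 CPM at 74770 other peaks. The order was the same per length: 7.66 CPM per kb of peak at non-coding starts, 14.2 at protein-coding promoters and 6.35 at other peaks, with median widths of 713, 1517 and 476 bp. Peaks that covered the start had a median of 10.6 CPM, and peaks beside it 3.13 CPM, close to other peaks. Those over the start were also wider, with median widths of 1015 and 483 bp. Per kb the medians were nearer to each other, at 9.68 and 6.02 CPM. lincRNA and antisense starts differed little, with medians of 6.21 and 5.31 CPM. Together the non-coding start peaks took 2.56% of all counts (2.55% to 2.56%), or 2.59% of those of set 1, with an interval of 2.58% to 2.60%, and 2.50% of those of set 2, with one of 2.49% to 2.51%. This gap rested on 1 peak: without that of Gm26917 the shares were 2.34% and 2.33%, with intervals that overlap.

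**Figure D1:**
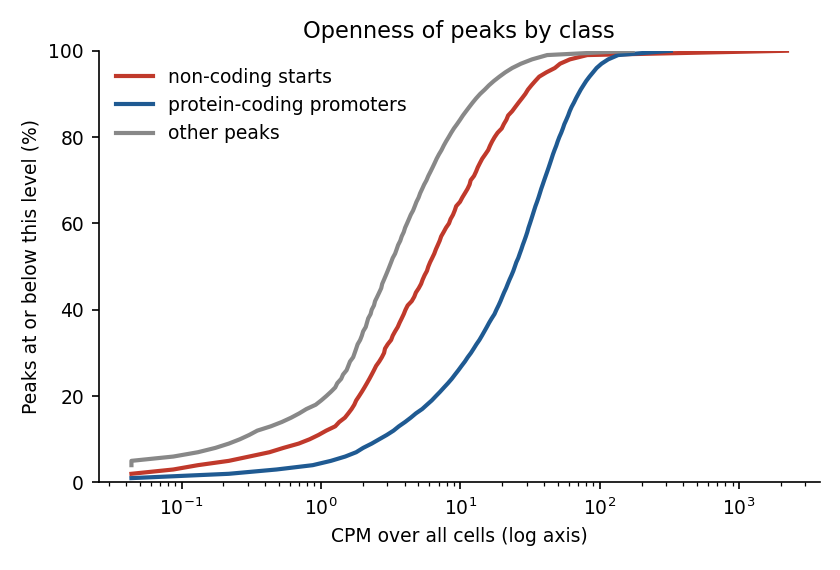
Cumulative share of peaks (%) at or below each level of CPM over all cells (log axis) for non-coding start peaks, protein-coding promoter peaks and other peaks. The curve of the non-coding starts, with its median at 5.90 CPM, lies between those of other peaks (3.10 CPM) and protein-coding promoters (24.7 CPM), and its upper end reaches 2213 CPM through Gm26917 alone.

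The sequence of non-coding start peaks also lay between the other classes. A peak was called CpG-rich when its central 300 bp had at least 50% GC and a ratio of observed to expected CpG of at least 0.6. That held for 244 non-coding start peaks (12.5%), 56.7% of protein-coding promoter peaks, 2.53% of other peaks and 12.4% of all peaks. The share was 17.9% among peaks that covered the start and 6.74% among those beside it. CpG-rich non-coding starts had a median of 12.5 CPM, and the CpG-poor ones 5.38 CPM. The GC box (GGGCGG) was found in 17.3% of non-coding start peaks, 48.2% of protein-coding promoter peaks and 16.0% of all peaks, and the TATA box word (TATAAA) in 10.3%, 4.91% and 11.8%. The PU.1 word was found in 6.91% of non-coding start peaks and 6.69% of all peaks, AP-1 words (TGACTCA or TGAGTCA) in 8.29% and 8.52%, RUNX words (TGTGGTTA or TGTGGTTT) in 5.98% and 6.94%, GATA words in 2.97% and 2.83%, the word CCGGAAGT of other ETS factors in 1.13% and 1.14%, and the CTCF consensus in 3.27% and 4.70%. All words were searched on both strands of the central 300 bp, and a match is not evidence of binding.

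Most non-coding starts had a count in few cells, but at this depth a cell without a count is not shown to be closed. In cells thinned to 4899 counts each, the median peak had a count in 2.14% of 749 cells of set 1 and 2.32% of 560 cells of set 2. The medians were 8.81% and 8.75% at protein-coding promoter peaks and 1.47% and 1.61% at all peaks. A count was found in at least 10% of thinned cells at 221 non-coding start peaks and in at least 50% at 5. Of the others, 563 had one in under 1% and 77 in none. A thinned cell had counts at a median of 85 non-coding start peaks in the first set and 84 in the other. The share of its counts that a cell placed in them had a median of 2.53% and quartiles of 2.35% and 2.76% in set 1. In set 2 the median share was 2.47%, with 2.24% and 2.65% as quartiles. Without the Gm26917 peak both medians were 2.35%. Without thinning the median peak had a count in 4.47% of cells.

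The 12 most open non-coding starts were led by Gm26917 (chr17:39842796-39849035), with 2543 CPM in set 1 and 1775 CPM in set 2, whereas the 11 that follow lay between 99.9 and 270.4 CPM over all cells. RefSeq annotates Rn18s-rs5, a pseudogene related to the 18S ribosomal RNA, under this peak, and the many ribosomal DNA copies share such sequence, so its counts are uncertain and cannot be given to a single locus. Its log2 ratio (set 1 over set 2) was 0.52, but 0.03 when the peak was counted once per cell. A count was found in 90.0% of thinned cells of set 1 and 86.8% of set 2, and the 10 cells with the most counts held 22.3% of its counts in set 1 and 32.3% in set 2.

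The next in order, 4932412D23Rik (270.4 CPM), lies inside Zbtb20, a zinc finger repressor gene, on the other strand, and its peak also covers the start of a Zbtb20 transcript that is not annotated as protein-coding. It had 268.7 CPM in set 1 and 272.6 CPM in set 2. Neat1, the RNA that builds the nuclear paraspeckles, had 281.7 and 254.0 CPM over a peak of 16712 bp. Its log2 ratio was 0.15, with an interval of 0.08 to 0.22, and 0.25 in thinned cells. Malat1, its neighbour on chromosome 19 and a nuclear RNA found in speckles, had 192.7 and 189.0 CPM over 12159 bp, and the interval of its ratio, -0.06 to 0.12, included 0, but in thinned cells the ratio was 0.25. Both peaks are wide, and per kb they held 16.1 CPM (Neat1) and 15.7 CPM (Malat1), against 104.2 CPM per kb at the narrower peak of 4932412D23Rik. Lncpint, a gene induced by p53, had 167.4 CPM in set 1 and 161.2 CPM in set 2. Of the other 7, Gm26887, Gm6410, Gm15287, D730045B01Rik, 6720427I07Rik and 1700096K18Rik had log2 ratios between -0.04 and 0.21. The last, 2410080I02Rik, lies 3933 bp from the start of Klf9, a Kruppel-like factor gene. It had 122.7 CPM in set 1 and 87.98 CPM in set 2, a log2 ratio of 0.48 (0.26 with each peak counted once per cell and 0.29 in thinned cells), while the promoter of Klf9 had 89.4 and 79.3 CPM.

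Between the sets, 1757 non-coding start peaks with at least 20 counts were compared by the log2 ratio of CPM, with 1 CPM added to each value, which draws low values toward 0. The median was 0.01 with quartiles of -0.35 and 0.34, and 904 of the peaks (51.5%) were above 0. At least 2-fold higher in set 1 were 85 peaks (4.84%), against 5.2% of all 79625 peaks tested, and at least 2-fold higher in set 2 were 137 (7.80%), against 6.85% of all peaks. Both shares were near those of all peaks. They were above those of protein-coding promoter peaks (1.48% and 1.81%) and near those of other peaks (6.19% and 8.13%).

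How often a peak passed 2-fold moved with its counts. Among non-coding start peaks with 20 to 99 counts, 20.4% passed in either direction, falling to 12.6% at 100 to 299 counts, 4.47% at 300 to 999 counts, and 0 of 91 at 1000 counts or more. Within the same ranges, protein-coding promoter peaks passed in 14.0%, 6.84%, 1.05% and 0.09%, and other peaks in 16.6%, 13.5%, 7.58% and 1.05%. Non-coding starts lay above both other classes at 20 to 99 counts and between them from 100 to 999 counts. At 1000 counts or more, 91 peaks are too few to place them against shares this low. How much of this is sampling of few counts was not tested.

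**Figure D2:**
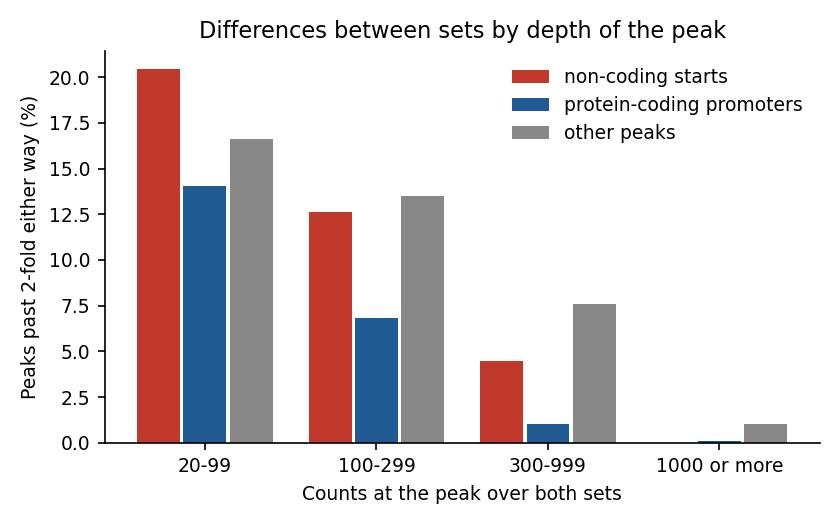
Share of peaks (%) at least 2-fold apart between the sets in either direction, by the number of counts at the peak over both sets, for the 3 classes of peak. The bars of non-coding starts fall from 20.4% at 20 to 99 counts to 0% at 1000 counts or more.

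CpG-rich starts leaned toward set 1. Of 239 CpG-rich non-coding start peaks tested, 157 (65.7%) were above 0, with a median of 0.09 over all 239. At least 2-fold higher in set 1 were 7 (2.93%), and in set 2 0, where 5.2% and 6.85% of all peaks tested were. Of 1518 CpG-poor ones, 78 (5.14%) were 2-fold higher in set 1 and 137 (9.0%) in set 2. Above 0 were 49.2% of the CpG-poor ones, and their median was -0.01. The same lean was present at CpG-rich protein-coding promoters, where 88 peaks (0.93%) were 2-fold higher in set 1 and 5 (0.05%) in set 2 with 53.8% above 0. Of CpG-rich other peaks, 33 (1.90%) were 2-fold higher in set 1 and 25 (1.44%) in set 2, and 58.1% were above 0. By GC content alone the ratio had no steady course: the median log2 ratio of non-coding starts was 0.09 under 40% GC, 0.01 at 40% to 50%, -0.02 at 50% to 60%, 0.06 at 60% to 70% and 0.09 above 70%. The part of base composition or library preparation in this lean was not tested.

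The 7 CpG-rich peaks were at C130073E24Rik, Mir124a-1hg, Gm32351, Hoxb3os, Gm20649, A230077H06Rik and Gm16136, named here because they are few and chosen after their values were seen. C130073E24Rik had the largest log2 ratio of them, 1.62, with 14.2 CPM in set 1 and 3.97 CPM in set 2, and lies 2071199 bp from the nearest protein-coding start, that of Tenm3. A230077H06Rik and Gm16136 lie 1015 and 1188 bp from the starts of Vstm2b and Grhl2. With each peak counted once per cell, Mir124a-1hg (0.82), Gm32351 (0.88) and Gm20649 (0.94) fell below 2-fold. Mir124a-1hg hosts a neuronal microRNA, and Hoxb3os lies in the Hoxb cluster.

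**Figure D3:**
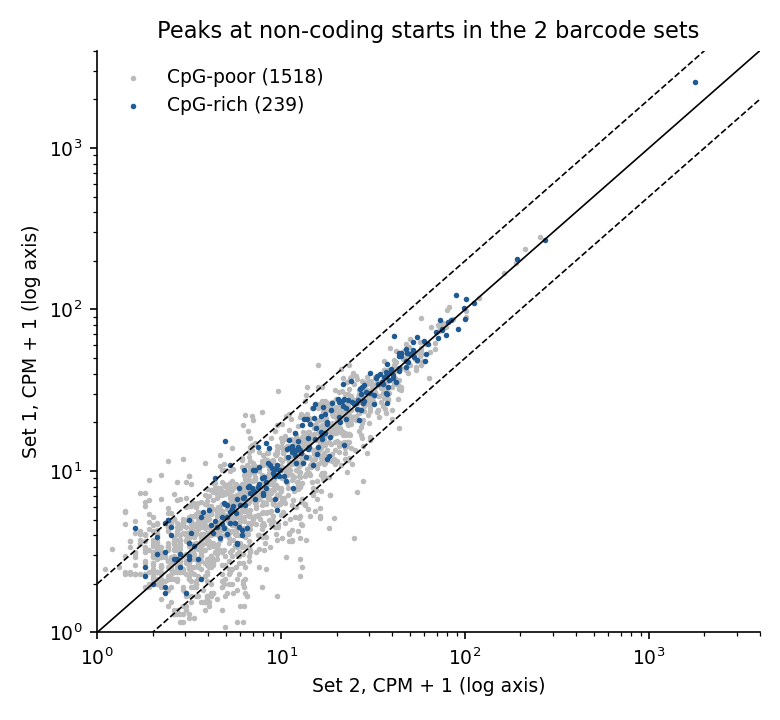
Non-coding start peaks with at least 20 counts by CPM + 1 in set 2 (horizontal, log axis) and set 1 (vertical, log axis), with 239 CpG-rich peaks in blue and 1518 CpG-poor peaks in grey. The solid line marks equal values and the dashed lines 2-fold differences. The 85 peaks above and 137 below the dashed lines are mostly of low CPM, and none of the CpG-rich peaks lies below.

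Of the 10 non-coding starts that were highest in set 1 relative to set 2, Gm38477 led, a lincRNA gene of chromosome 16 with 10.5 CPM in set 1 (137 counts) and 1.43 CPM in set 2 (14 counts). Its log2 ratio was 2.25, and 2.88 (2.08 to 3.79) without the added CPM. It is the first sequence shown above with a GATA word. 5330439M10Rik had 7.82 and 0.92 CPM, and A930019D19Rik, an antisense gene within Ralgapa2 and the other peak shown with a GATA word, had 8.51 and 1.22 CPM. Gm31393, whose peak holds a RUNX word, had 6.28 and 0.71 CPM. Gm4262, on the opposite strand within Litaf, a gene induced by lipopolysaccharide, had 10.8 and 1.94 CPM. Gm47972 was the most open of the 10, with 21.3 CPM in set 1 (278 counts) and 5.40 CPM in set 2 (53 counts), and its log2 ratio was 1.8. Gm15642 in Amz2, Gm37336, Gm48801 and Gm16059 in Csnk1e, a casein kinase gene, had 4.60 to 6.28 CPM in set 1 and 0.41 to 0.81 CPM in set 2. In each of the 10 the intervals of the sets did not overlap, but the peaks were picked for their difference, so this is a description.

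Of the 10 that were highest in set 2, Gm36756 led, an antisense gene within Ccdc88c. Its peak had 2.84 CPM in set 1 (37 counts) and 23.8 CPM in set 2 (234 counts), a log2 ratio of -2.69. A count was found in 1.07% of thinned cells of set 1 and 8.39% of set 2. The 2 further tested peaks at starts of this gene had ratios of -2.21 and -1.37. The first of these holds a PU.1 word and rests on 1 count in set 1 and 39 in set 2, with an interval without the added CPM of -11.0 to -3.13. The promoter of Ccdc88c, 40691 bp away, had 54.5 CPM in set 1 and 60.2 CPM in set 2, a ratio of -0.14. Gm49654 had 3.45 and 17.1 CPM, A630091E08Rik 1.23 and 11.6 CPM, and Gm12596 1.84 and 11.7 CPM. Gm43121, shown above with its PU.1 word, had 1.53 CPM in set 1 (20 counts) and 11.9 CPM in set 2 (117 counts). Gm37759, the other one shown, is antisense within the calcium channel gene Cacna1s and rests on 2 counts in set 1 and 51 in set 2, a log2 ratio without the added CPM of -5.08 with an interval of -8.17 to -3.16. Gm31897, the CpG-poor example, had 0.92 and 6.82 CPM. Its neighbour Itgal encodes a chain of the leukocyte integrin LFA-1, and the Itgal promoter 7885 bp away had 13.4 CPM in set 1 and 27.3 CPM in set 2, a ratio of -0.97. Gm30329, Gm26982 and Gm32479 had 0.46 to 0.69 CPM in set 1 and 4.99 to 8.45 CPM in set 2.

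**Figure D4:**
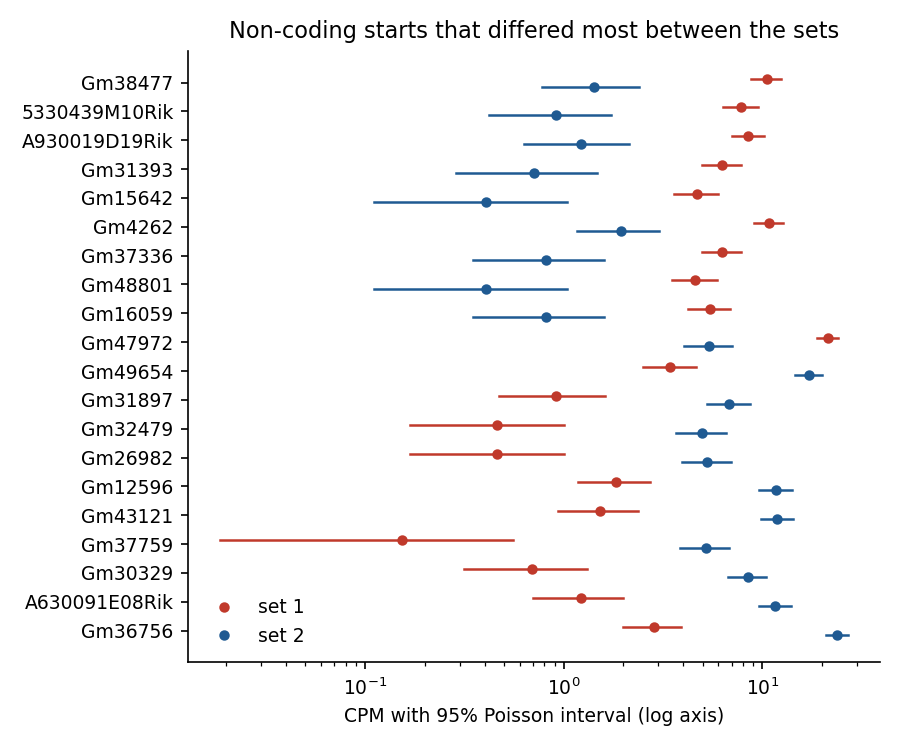
CPM in set 1 (red) and set 2 (blue) on a log axis, with exact 95% Poisson intervals as lines, for the 10 non-coding starts with the highest and the 10 with the lowest log2 ratio among those with at least 50 counts. The intervals of both sets lie apart at each peak, from 10.5 against 1.43 CPM at Gm38477 to 2.84 against 23.8 CPM at Gm36756.

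Among these 20 peaks, 11 covered their start and 7 lay in a protein-coding gene on the opposite strand. An open protein-coding promoter was found within 100000 bp of 17 of them. None of these promoters passed 2-fold with 1 CPM added to each value, although Itgal would without it. Their log2 ratios ran from -0.97 (Itgal) to 0.26 (Insm1), with a median size of 0.09. The wider set of non-coding starts was similar. At 1377 tested peaks with an open protein-coding promoter within 100000 bp, the ratio of the peak had a Spearman correlation of 0.12 with that of the promoter, given as a description across peaks of 1 pair of libraries, and 54.6% had the same sign. For 50852 other peaks these values were 0.09 and 53.1%. Among these 1377 non-coding starts, 170 were past 2-fold. Of the 170, 98 (57.6%) had the sign of the promoter, against 56.4% for other peaks, and in 3 both passed 2-fold in the same direction.

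Peaks at starts of the same gene were also set side by side. Of 110 genes with at least 2 tested peaks, 53 had all of them on the same side of 0. At 35 genes at least 1 peak passed 2-fold, and at 3 of these (2310067P03Rik, Gm36756 and Mir670hg) 2 or more did so in the same direction. At Gm11685 a peak passed in each direction, with ratios of -1.31 and 1.06 on 49 and 52 counts. Many ratios were small, with quartiles of -0.35 and 0.34 over all tested non-coding starts. Of all peaks tested, 5.2% were 2-fold higher in set 1 and 6.85% in set 2. The same counts by gene were not made for other peaks, so these are a description.

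Peaks with a PU.1 word were lower in set 1. Of 117 tested non-coding start peaks with the word, 82 (70.1%) had a ratio below 0, the median was -0.35, and 23 were at least 2-fold higher in set 2 while 2 were in set 1. Of all peaks tested, 6.85% were 2-fold higher in set 2 and 5.2% in set 1. The 1640 non-coding start peaks without the word had a median of 0.03. Other peaks leaned the same way, with a median of -0.28 over 4871 peaks and 65.7% below 0, so the lean is not particular to non-coding starts. The word was present in 16.8% of the non-coding starts 2-fold higher in set 2, in 2.35% of those 2-fold higher in set 1 and in 5.99% of those between. The most open of the 23 were Gm21057, opposite to Zfp710, with 17.5 CPM in set 1 and 42.8 CPM in set 2, Gm17034, opposite to the hexokinase gene Hk2, with 11.9 and 28.2 CPM, and AC102333.1, opposite to the ubiquitin ligase gene Nedd4l, with 8.81 and 21.9 CPM. Gm5547, 13816 bp from the small GTPase gene Rap1a, had 4.14 and 18.4 CPM. Chaer1 had 2.15 and 6.31 CPM and 9030404E10Rik, 25607 bp from the Notch target gene Hes1, 2.22 and 7.03 CPM. These examples were chosen after their values were seen.

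The other words showed smaller medians. Peaks with a GATA word had a median of 0.18 (52 non-coding starts, 6 of them 2-fold higher in set 1 and 5 in set 2), and peaks with a CTCF site 0.15 (64, with 1 and 0). Those with AP-1 words had -0.0024 (149, with 8 and 15), where other peaks with the word had 0.13, and those with RUNX words -0.03 (109, with 5 and 11). The word of other ETS factors had a median of -0.04 (22, with 2 and 2). Of these 22 peaks, 15 (68.2%) were below 0, against 51.3% of 390 other peaks with the word. The TATA box word had 0.01 (184, with 8 and 18) and the GC box 0.07 (316, with 9 and 11). GATA, CTCF and RUNX words had the same sign at other peaks, with medians of 0.17, 0.16 and -0.07. Of all peaks tested, 5.2% were 2-fold higher in set 1 and 6.85% in set 2. Among 2035 other peaks with a GATA word, 309 were 2-fold higher in set 1 and 131 in set 2. These counts were 70 and 22 of 3917 with a CTCF site, 662 and 462 of 6137 with AP-1 words and 357 and 636 of 5207 with RUNX words.

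**Figure D5:**
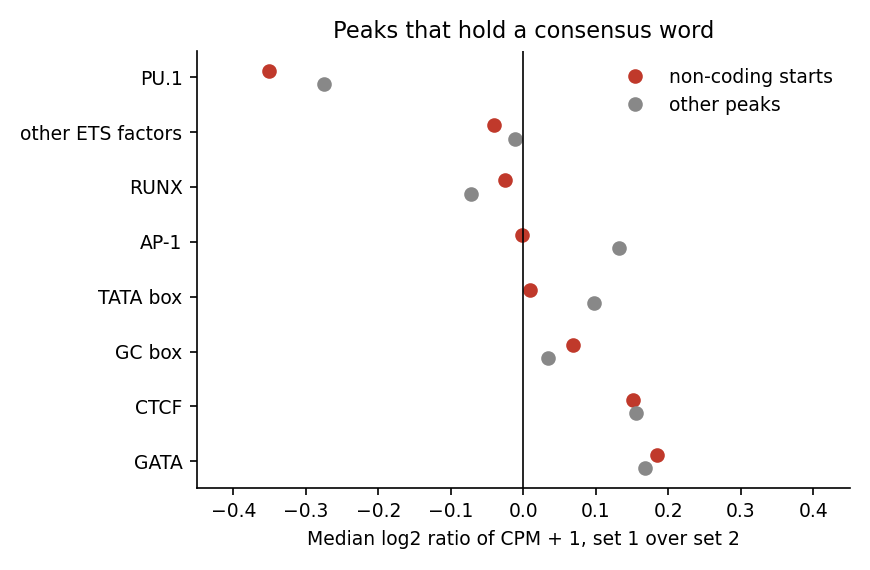
Median log2 ratio of CPM + 1 of set 1 over set 2 (horizontal) for tested peaks that hold each consensus word, at non-coding starts (red) and at other peaks (grey). The PU.1 word has the lowest median in both classes, -0.35 and -0.28, and the classes lie farthest apart for AP-1, at -0.0024 and 0.13.

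The named non-coding genes were grouped by known role. At the X inactivation center, all 5 peaks were tested and none passed 2-fold. Ftx, an activator of Xist, had a peak with 61.6 CPM in set 1 and 56.1 CPM in set 2 and another with 29.0 and 36.5 CPM. Jpx, also an activator, had 34.7 and 34.2 CPM. Xist had 25.2 and 31.0 CPM, a ratio of -0.29 (-0.06 in thinned cells). Tsix, the antisense repressor of Xist, had 13.9 and 7.23 CPM, a ratio of 0.85 with all counts and 0.66 with each peak counted once per cell, but 0.20 in thinned cells. At imprinted genes, Kcnq1ot1, which silences neighbouring genes on the paternal chromosome, had 52.5 and 42.9 CPM, and Airn, which silences Igf2r, 19.2 and 16.8 CPM. The ratio of Airn was 0.18 with all counts, 0.42 with each peak counted once per cell and 0.94 in thinned cells. Its peak had a count in 9.48% of thinned cells of set 1 and 3.93% of set 2. H19 and both peaks of Meg3 had fewer than 20 counts and were not compared.

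The hosts of microRNAs had 13 peaks, of which 11 were tested, 3 passed 2-fold in set 1 and 0 in set 2, where 5.2% and 6.85% of all peaks did. Of the 3, 2 belong to a single gene, Mir670hg. Mir17hg, which hosts a cluster of microRNAs linked to proliferation, was the most open, with 74.9 and 74.2 CPM. Mir155hg, the host of an immune cell microRNA, had 36.7 and 40.7 CPM at its first peak and 9.58 and 13.5 CPM at the other. The peaks that passed were 1 of 2 tested at Mir124a-1hg (9.81 and 4.28 CPM, 0.82 with each peak counted once per cell) and 2 of 4 at Mir670hg, with 5.75 against 1.22 and 3.6 against 1.02 CPM. The ratio of the latter, 1.19, was 0.83 in thinned cells. The most open peak of Mir670hg had 15.7 and 16.2 CPM. Hosts of small nucleolar RNAs had 4 peaks, at Snhg6 (41.3 and 35.1 CPM), Snhg12 (37.0 and 31.3 CPM, and a second peak at 1.23 and 2.14 CPM) and Snhg20 (16.5 and 15.4 CPM), none past 2-fold.

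Of the widely expressed nuclear RNAs, Miat had 14.7 and 11.8 CPM and Pvt1, next to Myc, 9.19 and 8.86 CPM, beside Neat1 and Malat1 above. Genes tied to p53 or to blood cells had 5 peaks, none past 2-fold. Lockd, downstream of the cell cycle inhibitor gene Cdkn1b, had 65.9 CPM in set 1 and 70.5 CPM in set 2, and the promoter of Cdkn1b 57.1 and 60.8 CPM. Trp53cor1 (lincRNA-p21), near Cdkn1a, had 10.7 and 10.9 CPM, and the second Lncpint peak 7.43 and 11.9 CPM, a ratio of -0.61 that was -0.03 in thinned cells. In the Hox clusters, Hoxb3os had 3.98 against 1.43 CPM at a peak that passed 2-fold (ratio 1.04) and 3.07 against 1.73 CPM at the other, Hoxb5os had 9.58 and 5.91 CPM (0.62), Hoxd3os1 7.59 and 8.04 CPM and Hoxaas3 1.53 and 1.83 CPM. Both listed Hoxb genes were higher in set 1. So were the nearest open protein-coding promoters, those of Hoxb5 (22.8 and 13.4 CPM) and Hoxb2 (23.75 and 14.05 CPM). Not every non-coding start there leaned this way. Another tested peak, of a gene not on the list, also has Hoxb2 as its nearest open promoter. That peak was higher in set 2, against the promoter, but within 2-fold. The intervals of the ratio included 0 at the second Hoxb3os peak and at the Hoxd and Hoxa genes. Genes named as opposite strand transcripts had 68 peaks, 57 of them tested, with a median of 0.03, 1 past 2-fold in set 1 and 4 in set 2, where all peaks passed in 5.2% and 6.85%, so these counts are no result about the list. The most open were at Rab10os (96.8 and 99.8 CPM), Lrrc75aos2 (72.6 and 71.3 CPM), Nr6a1os (41.2 and 46.8 CPM), Ptgs2os2 (35.3 and 37.8 CPM) and Epb41l4aos (31.3 and 25.9 CPM), all within 2-fold.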

How the data were processed

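Single-cell ATAC-seq of CLCA3A1high and CLCA3A1low LT-HSCs was analysed from a table of counts of cut sites per peak and cell barcode, which the authors deposited without a stated normalization. They processed the reads with Cell Ranger ATAC 1.2.0 on GRCm38 (mm10), per the submitters' processing notes, and the table has a single list of peaks for the cells of both samples. A second table of counts carries no peak names and was not used here. Median depth was 13358.5 counts per cell in set 1 and 12755 in set 2.

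The members, lists and tests were chosen with earlier results of these data known. Starts came from GENCODE M21 and sequence from the RefSeq GRCm38 genome. Counts were summed per set, scaled to CPM, and compared as the log2 ratio of CPM plus 1 for peaks with at least 20 counts. Intervals were exact Poisson, Clopper-Pearson and conditional binomial ones. Cells were thinned to the 10th percentile of depth, 4899 counts, which left out 145 cells. No cell was removed otherwise, no doublet caller was run, and 57 cells had over 3 times the median counts. Genes were named by rule: the 12 most open, the 10 highest and 10 lowest ratios with at least 50 counts and the same sign with each peak counted once per cell, and the listed genes with at least 20 counts (of the opposite strand genes, the 5 with the most counts). Python 3.11.15, NumPy 2.4.6, SciPy 1.17.1 and pysam 0.24.0 were used, and the calculations were tested on simulated data.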

Additional observations from a re-analysis of the deposited data

How the results depend on the processing

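With a window of 0 bp, the members fell to 1005, the peaks 2-fold higher in set 1 to 42 and those in set 2 to 63. With a pseudocount of 5 CPM the latter counts were 14 and 20, by construction of the larger pseudocount (0.73% and 1.01% of all peaks). In thinned cells 89 peaks were 2-fold higher in set 2, with fewer peaks tested. The share of counts was 2.32% with a window of 500 bp, 2.00% with 0 bp, 2.28% without peaks within 5000 bp of a protein-coding start, 3.01% with other long non-coding gene types added, 2.36% with each peak counted once per cell, 2.54% in thinned cells and 2.52% without cells over 3 times the median counts. Of alternatives chosen after seeing the data, leaving out peaks at any transcript start of a protein-coding gene gave 2.44% and leaving out the Gm26917 peak 2.33%. The median share of cells with a count was 3.90% at 2 times the thinned depth and 4.47% with no thinning. The median log2 ratio stayed between -0.01 and 0.02 under each alternative, the lowest with the median-of-ratios size factor, and all other counts of peaks past 2-fold were within 1.5 times those reported, also with ratios centred by GC content, an alternative chosen after seeing the data. Of 70 named peaks, 41 had an interval of the ratio that excluded 0. Of these 1 changed sign, Gm6410, with -0.0297 under the count of once per cell. Counting also those whose interval included 0, 8 of 70 changed sign with each peak counted once per cell and 8 in thinned cells. The 20 peaks named for their ratio were chosen to keep their sign when counted once per cell. Their sign could therefore not change under that count, and they say nothing about its stability there. In thinned cells the ratio of 20 of the 70 moved beyond the counting interval. No paired analysis was possible because each set is 1 library with no replicate. Depth limits the low peaks: 198 had under 20 counts and were not compared.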
